A study of Mus musculus with 3 samples.

Results

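Broad domains of acetylated histone H3 lysine 27 (H3K27ac) were examined in pancreatic epithelial spheroids, which are three-dimensional cultures grown from the pancreas of wild-type C57BL/6J mice. One H3K27ac chromatin immunoprecipitation library came from spheroids of untreated mice. The other came from spheroids grown after caerulein treatment of the mice (post-caerulein); caerulein is a secretagogue peptide that provokes acute pancreatitis. No other allele or agent is named for either group, and the age of the mice and the number pooled in a lysate are not given in the sources used here. A broad domain was defined by width: all autosomal peaks of at least 15 kb were taken from both peak lists, and those that overlapped were merged. This gave 905 domains, made from 757 post-caerulein peaks (2.00% of 37924 autosomal peaks) and 675 untreated peaks (1.83% of 36846). Merging all autosomal peaks of any width gave 41416 regions. Because width selected the domains, every width and covered length below describes them and tests nothing. With 1 library per condition there is no replicate error, so no p-value is given and no difference has a replicate check. The lists hold no read counts, so depth is unknown.

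H3K27ac is placed on nucleosomes of active promoters and enhancers by the acetyltransferases p300 and CBP. Most acetylated stretches are short, but long, nearly unbroken stretches gather at a small number of loci. In many tissues such long stretches, often described as super-enhancers or stretch enhancers, lie at genes that define the identity of the cell, such as its lineage transcription factors, and at genes that respond to signalling. In the adult pancreas the ductal epithelium carries keratins and the transcription factor Sox9, whereas acinar cells make the digestive enzymes.

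Several domains lie over microRNAs, short RNAs that pair with messenger RNAs through a seed, bases 2 to 8 from the 5′ end. The 7 mature sequences below are among the best known of those beneath domains, a choice made after the domains were known. Others, such as let-7e-5p and miR-27a-3p, are not printed. The seed is in capitals and the sequences are from RefSeq (GRCm38.p6, the build of the peak lists).
miR-21a-5p: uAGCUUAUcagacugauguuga
miR-29a-3p: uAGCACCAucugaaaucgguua
miR-29b-3p: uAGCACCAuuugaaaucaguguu
miR-31-5p: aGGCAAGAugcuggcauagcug
miR-30a-5p: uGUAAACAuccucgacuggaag
miR-125a-5p: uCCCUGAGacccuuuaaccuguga
miR-125b-5p: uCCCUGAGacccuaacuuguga
Seeds were shared by miR-29a-3p and miR-29b-3p, which come from 1 domain, and by miR-125a-5p and miR-125b-5p, which come from domains on chromosomes 17 and 9.

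Promoter windows of 5 genes are shown for the loci to which the values below return. Each window runs from 250 bases before to 50 bases after the annotated start (RefSeq, GRCm38.p6), on the strand of the gene and 5′ to 3′. Zmiz1 (chr14:25458935-25459234, plus strand) and Smad3 (chr9:63757945-63758244, minus strand) lie beneath some of the widest domains. Actn1 (chr12:80260314-80260613, minus strand) lies beneath a domain seen after caerulein alone. Sipa1l3 (chr7:29505411-29505710, minus strand) and Myh9 (chr15:77842126-77842425, minus strand) lie beneath domains of the untreated list that were empty or nearly empty in the other. Capitals mark matches, on either strand, to any of 5 motifs. The AP-1 motif searched was TGACTCA. The motif of TEAD factors, which act with YAP, was GGAATG. The motif of the ETS family was CCGGAA. The motif of SP and KLF zinc-finger factors was GGGCGG. The motif of the TATA box was TATAAA. No match of a motif overlapped one of another motif in these windows. A match is a run of letters and no evidence of binding.
Zmiz1 promoter: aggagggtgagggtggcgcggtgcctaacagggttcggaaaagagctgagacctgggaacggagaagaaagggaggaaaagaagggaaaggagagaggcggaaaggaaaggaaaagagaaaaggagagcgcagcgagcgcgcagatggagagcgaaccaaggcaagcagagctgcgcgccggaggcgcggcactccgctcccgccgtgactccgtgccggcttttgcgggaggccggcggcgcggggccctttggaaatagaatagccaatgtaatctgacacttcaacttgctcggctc
Smad3 promoter: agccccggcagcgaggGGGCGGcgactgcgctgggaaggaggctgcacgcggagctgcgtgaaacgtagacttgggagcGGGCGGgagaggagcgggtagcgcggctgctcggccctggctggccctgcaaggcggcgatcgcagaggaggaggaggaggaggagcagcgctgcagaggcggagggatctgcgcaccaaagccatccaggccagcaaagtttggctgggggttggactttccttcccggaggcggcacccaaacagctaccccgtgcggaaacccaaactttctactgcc
Actn1 promoter: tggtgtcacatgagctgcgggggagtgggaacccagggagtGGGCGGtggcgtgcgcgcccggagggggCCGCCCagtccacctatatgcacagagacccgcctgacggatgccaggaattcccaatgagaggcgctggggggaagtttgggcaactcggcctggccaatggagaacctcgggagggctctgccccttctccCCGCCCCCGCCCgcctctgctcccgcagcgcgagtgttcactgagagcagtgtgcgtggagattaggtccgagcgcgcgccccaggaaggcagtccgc
Sipa1l3 promoter: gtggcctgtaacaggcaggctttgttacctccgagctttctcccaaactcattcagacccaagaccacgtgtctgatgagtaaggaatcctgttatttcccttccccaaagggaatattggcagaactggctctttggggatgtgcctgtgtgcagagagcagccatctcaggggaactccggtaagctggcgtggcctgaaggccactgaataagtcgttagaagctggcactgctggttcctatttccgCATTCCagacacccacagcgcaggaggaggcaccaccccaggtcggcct
Myh9 promoter: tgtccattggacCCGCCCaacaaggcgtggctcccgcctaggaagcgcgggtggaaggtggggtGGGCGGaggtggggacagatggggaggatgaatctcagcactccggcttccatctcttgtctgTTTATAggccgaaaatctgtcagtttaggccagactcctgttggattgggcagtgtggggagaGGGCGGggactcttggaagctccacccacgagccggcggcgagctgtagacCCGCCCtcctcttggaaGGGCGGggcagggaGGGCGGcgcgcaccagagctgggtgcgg
The Zmiz1 window held none of the 5 motifs. SP/KLF letters matched 2 times in the Smad3 window, 4 times in the Actn1 window and 6 times in the Myh9 window. Sipa1l3 held 1 TEAD match, and Myh9 also held 1 TATA match.

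The domains covered 21.1 Mb in all. Their median width was 20.1 kb, with quartiles of 17.1 and 25.3 kb. Of the 905, 150 were at least 30 kb wide, 55 at least 40 kb and 24 at least 50 kb. They held 14.7% of the length covered by the whole post-caerulein list (20.4 of 138 Mb) and 15.2% of the untreated list (20.0 of 132 Mb). The limit of 15 kb fell in a continuous distribution, since 128 domains were 15 to 16 kb wide and 155 further regions had a widest peak of 14 to 15 kb. Just inside the limit were peaks at Trim25 (15002 bp), Sys1 (15013 bp), Igsf9 (15017 bp) and Lrrc8d (15018 bp). Just outside were peaks near Rbx1 (14997 bp) and Chrd (14996 bp) and at Fbxl22 (14983 bp), Mbnl1 (14981 bp) and Anp32b (14972 bp). Wide peaks had high deposited scores. A score of 3100 or more was reached by 76.0% of wide post-caerulein peaks, against 14% of narrower ones, and by 89.2% of wide untreated peaks, against 21.3%.

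The 15 widest domains were between 57.8 and 94.0 kb wide. Domains are called by the protein-coding gene whose start or end lies inside, otherwise by the gene that holds them, otherwise as "near" the closest gene; a number in parentheses separates domains of 1 name in the order of the chromosome. The widest, 94.0 kb on chromosome 14 (25449782 to 25543792), held the start of Zmiz1, a coactivator of the androgen receptor and of Notch-dependent transcription. Post-caerulein peaks covered 93.8 kb of it and untreated peaks 92.3 kb, each list with 1 unbroken peak. Shb, an adaptor protein downstream of receptor tyrosine kinases, lay beneath 84.0 kb on chromosome 4 (45449449 to 45533439), covered over 83.9 kb after caerulein against 83.4 kb untreated. Bcar3, an adaptor that binds the adhesion protein p130Cas, lay beneath 81.0 kb on chromosome 3 (122451112 to 122532070), with 80.6 kb and 80.8 kb covered. Sorbs2, a scaffold of actin filaments and cell junctions, lay beneath 78.1 kb on chromosome 8, with 77.9 kb and 78.0 kb covered. At these 4 loci the lists differed by under 2% of the width of the domain.

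Smad3, which carries TGF-beta signals to the nucleus, lay beneath a domain of 74.6 kb with its start inside (chromosome 9, 63690037 to 63764676; 74.0 kb covered after caerulein and 74.5 kb untreated). A second domain further along the gene brought the length over Smad3 to 111 kb. Abhd2, a lipase, lay beneath 71.7 kb. The domain of 69.3 kb at Ankrd40 also reached an end of Abcc3, a transporter of bile acids and conjugated drugs. The anti-apoptotic gene Bcl2l1 lay beneath 61.7 kb, with 61.5 kb covered after caerulein and 59.3 kb untreated. Niban2 (66.0 kb) and Ergic1 (57.8 kb) were also among the 15 widest, as was 1 domain that differed strongly between the lists and is given with the domains that differ.

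Well-studied noncoding genes lay beneath 3 of the 15 widest. A domain of 63.0 kb at the ends of Tubd1 and Vmp1 (chromosome 11, 86567680 to 86630632) held the hairpin of miR-21a, a microRNA raised in many tumours and injured tissues. It was 1 peak in each list, covering 62.8 kb after caerulein against 62.9 kb untreated. Malat1 and Neat1, abundant nuclear long noncoding RNAs, lay with Frmd8 beneath 61.7 kb on chromosome 19 (61.4 kb and 61.7 kb covered). A domain of 62.7 kb on chromosome 6 (31054681 to 31117387) held no protein-coding gene, with the closest, Klf14, 95690 bp away. It lay over the long noncoding RNA Lncpint and the hairpins of miR-29a and miR-29b-1, and had 61.5 kb covered after caerulein and 61.8 kb untreated.

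**Figure D1:**
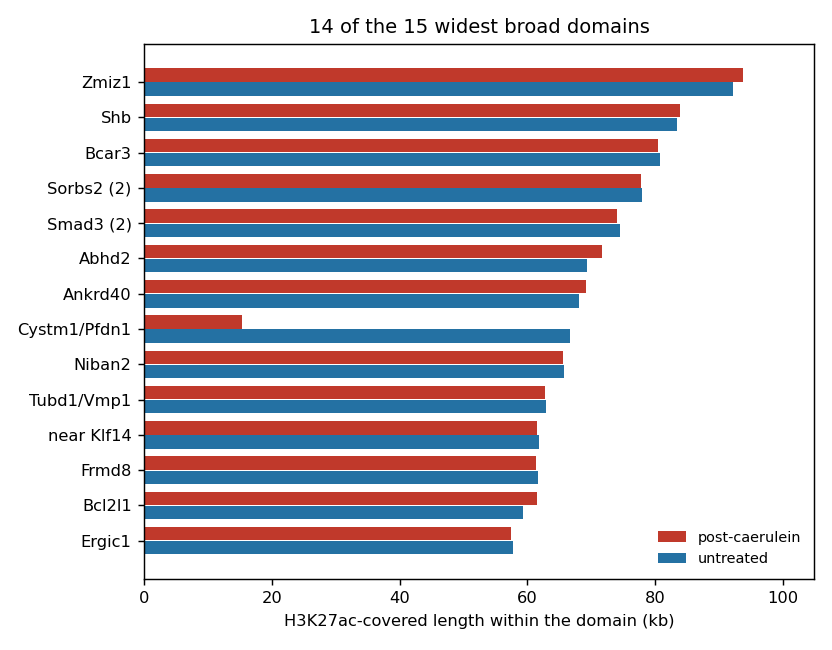
Length covered by H3K27ac peaks (kb, horizontal axis) within 14 of the 15 widest broad domains, after caerulein (red bars) and in untreated spheroids (blue bars), 1 library each. In 13 domains the bars differ by 2.29 kb or less; Cystm1/Pfdn1 has 15.2 kb after caerulein against 66.7 kb untreated.

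In all, 32 of 919 autosomal microRNA hairpins (3.48%) lay in 27 domains, giving 57 mature sequences. Beside miR-21a and the miR-29 pair, miR-31 lay beneath a domain of 38.2 kb near Ifne, with 38.2 kb covered in both lists. The hairpin of miR-30a lay beneath 21.3 kb near Ogfrl1 (20.2 kb after caerulein, 21.3 kb untreated). That of miR-125b-1 lay beneath 18.6 kb near Sorl1 (17.5 kb and 18.6 kb). The hairpin of miR-125a, whose seed matches that of miR-125b-5p, lay at Spaca6 beneath 27.6 kb, fully covered after caerulein by 1 peak and over 24.9 kb by 3 untreated peaks. The hairpin of let-7e lay in the same domain. Hairpins of miR-23a, miR-27a and miR-24-2 lay at Zswim4 beneath 15.5 kb, which passed 15 kb in untreated spheroids alone. Post-caerulein peaks covered 14.3 kb of it.

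Most of the acetylated length was common to both conditions. Post-caerulein peaks of any width covered 96.4% of the summed length of the domains and untreated peaks 94.8%, and 91.2% (19.3 Mb) was covered in both. At least 90% of the width was covered in each list in 643 domains (71.0%). A peak of 15 kb was present in both lists in 509 domains (56.2%, exact Clopper-Pearson 95% interval 52.9 to 59.5), in the post-caerulein list alone in 243 (26.9%, 24.0 to 29.9) and in the untreated list alone in 153 (16.9%, 14.5 to 19.5). Here and below such intervals cover counting error over domains only, not variation between cultures. Of 1256 regions whose widest peak was 10 to 15 kb, 578 had a peak of at least 10 kb in both lists. Such a peak was in the post-caerulein list alone in 399 and in the untreated list alone in 279. The larger post-caerulein class was thus not particular to broad domains.

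Passing 15 kb in 1 list alone rarely meant that acetylation was missing from the other. In the 243 domains wide after caerulein alone, untreated peaks still covered a median of 88.9% of the domain, and 189 domains (77.8%) were at least 80% covered in both lists. The widest untreated peak there was 12.5 to 15 kb in 81 domains, 10 to 12.5 kb in 59, 5 to 10 kb in 92 and narrower in 8, and 3 had no untreated peak. In the 153 wide in untreated spheroids alone, post-caerulein peaks covered a median of 90.5%, and 116 (75.8%) were at least 80% covered in both. The widest post-caerulein peak was 12.5 to 15 kb in 53, 10 to 12.5 kb in 50, 5 to 10 kb in 43 and narrower in 5, and 2 had none.

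The lists often cut 1 domain into different numbers of peaks. One post-caerulein peak stood against several untreated peaks in 314 domains, and 1 untreated peak against several post-caerulein peaks in 207. Each list had 1 peak in 358 domains and several in 21, and 5 domains had no peak of 1 list. The same counts over narrower regions are not given here, so these counts are not shown to be particular to broad domains. Among the 243 domains wide after caerulein alone, 204 held several untreated peaks, and in 124 of these every gap was under 1 kb. Among the 153 wide in untreated spheroids alone, 124 held several post-caerulein peaks, 72 of them with every gap under 1 kb. When peaks under 1 kb apart were joined, 1430 domains passed the limit and the 2 kinds of splitting fell to 109 and 64.

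**Figure D2:**
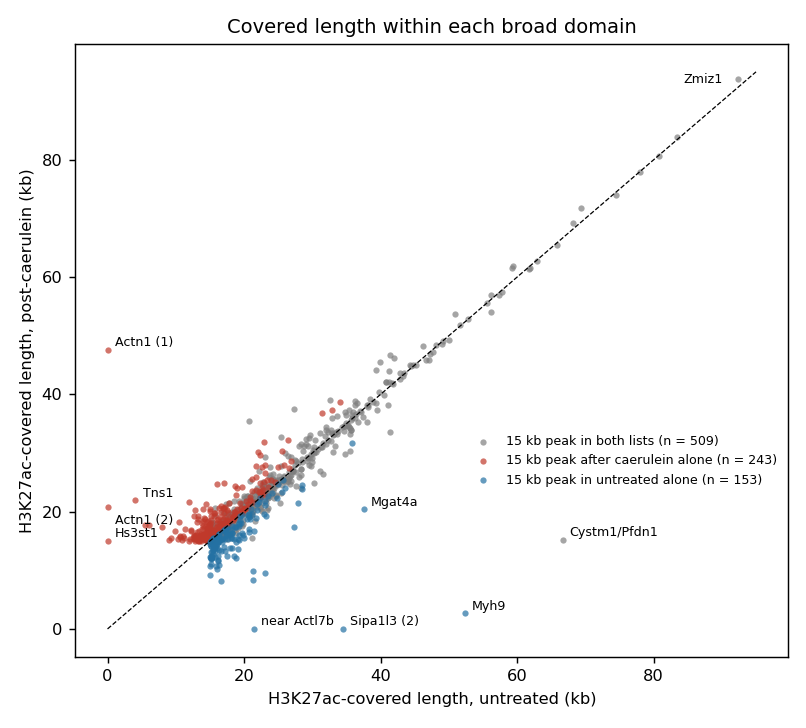
Length covered by H3K27ac peaks (kb) within each of the 905 broad domains, untreated on the horizontal axis and post-caerulein on the vertical axis. Each point is 1 domain, coloured by the list or lists with a 15 kb peak, and the dashed line marks equal length. Domains apart by at least 15 kb are named, as is Zmiz1. Most others lie close to the line, but some do not, such as Rpl7/Rdh10 (9.61 kb after caerulein, 23.0 kb untreated).

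Few domains differed by 1.5 times in covered length. With 1 kb added to both lengths, 15 domains (1.66%) were at least 1.5 times longer covered after caerulein and 13 (1.44%) in untreated spheroids. Over all 41416 merged regions, most of them narrow, the same fold was passed by 19.4% after caerulein and 14.7% in untreated spheroids. Of 1256 regions whose widest peak was 10 to 15 kb, 51 (4.06%) and 37 (2.95%) passed it. The log2 ratio of post-caerulein to untreated covered length had a median of 0.01 over the domains, and 90% of them lay between -0.27 and 0.33. When covered length was divided by the total of its list (138 and 132 Mb), the counts past 1.5-fold turned to 13 after caerulein and 15 in untreated spheroids, and at a width limit of 20 kb they were 7 and 9, so the direction of the tally depended on these settings.

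Actn1, which encodes the actin cross-linker alpha-actinin-1 of focal adhesions, held the longest stretch found after caerulein alone. Its first domain ran over 47.6 kb (chromosome 12, 80194727 to 80242357) and its second over 20.7 kb (80242380 to 80263093, with the start of the gene), both fully covered after caerulein. No untreated peak was listed in either, within a gap of 81294 bp between untreated peaks. In the 50 kb on each side of the first, 45.4 kb was covered after caerulein against 23.8 kb untreated. The post-caerulein length there includes the 20.7 kb of the second domain, which was itself empty in the untreated list. Beyond the empty stretch, the flanks were acetylated in both lists. The 2 domains began a run of 5 towards Dcaf5, of which 124 kb was covered after caerulein against 52.8 kb untreated. The 2 Actn1 domains gave 68.3 kb of the former and 0 kb of the latter. The peak scores of 2210.2 and 2878.65 lay below the 3100 that most wide peaks reached.

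Other domains longer after caerulein lay at or near genes of several kinds. At Hs3st1, a heparan sulfate sulfotransferase, 15.1 kb was covered after caerulein and no untreated peak was listed. Within Tns1, which encodes tensin-1, a link of integrins to actin, 21.9 kb was covered after caerulein by 1 peak and 4.09 kb by 2 untreated peaks, a log2 ratio of 2.17. Gas7, expressed in growth-arrested cells, had 17.5 kb against 7.97 kb (1.04). The second domain of Tpst2, a protein tyrosine sulfotransferase, had 17.8 kb against 6.14 kb (log2 ratio 1.4), with low top scores of 232.89 and 233.56. At Tns1 the 50 kb on each side had 52.3 kb covered after caerulein against 4.79 kb untreated. The flanks of Hs3st1 had 17.7 kb against 5.02 kb and those of Gas7 10.6 kb against 2.55 kb. Those of this Tpst2 domain were closer, with 27.2 kb against 24.5 kb.

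Zbtb16, a zinc-finger transcription factor, had 35.5 kb against 20.8 kb (log2 ratio 0.75) and was the 1 member of the 15 with a 15 kb peak in both lists. Domains near Sgk1, a kinase induced by serum and glucocorticoids, had 24.8 kb against 16 kb (0.60) and 21.6 kb against 12 kb (0.80). The fifth domain near Myc, 289 kb from that gene, had 18.3 kb against 10.4 kb (0.76). Hmga2, an architectural chromatin protein of embryonic and tumour cells, had 20.2 kb against 12.8 kb (0.62). Arhgef26, a guanine nucleotide exchange factor of small GTPases (15.1 kb against 8.94 kb), and Cpe, carboxypeptidase E of prohormone processing (16.6 kb against 9.95 kb), were also longer covered after caerulein. Of these 15, 3 had no untreated peak and the other 12 kept at least 4.09 kb of untreated coverage. Of the 3, 2 were the neighbouring Actn1 domains, which lie in 1 untreated gap and are not independent.

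Among the 13 domains longer in untreated spheroids, 2 held no post-caerulein peak. The second domain of Sipa1l3, which encodes a Rap GTPase-activating protein of epithelial polarity, had 34.5 kb in the untreated list (chromosome 7, 29480967 to 29515471; score 3100). The gap between post-caerulein peaks there was 93860 bp, and the 50 kb on each side were covered over 40.9 kb after caerulein and 43.4 kb untreated. A domain of 21.4 kb on chromosome 4 (56472646 to 56494050; score 3100), 245954 bp from the closest protein-coding gene, Actl7b, lay in a post-caerulein gap of 137022 bp. Its flanks were sparse in both lists, with 3.41 kb covered after caerulein and 7.56 kb untreated.

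Myh9, the heavy chain of nonmuscle myosin IIA, which contracts actin filaments, had 52.3 kb covered by 1 untreated peak and 2.65 kb after caerulein (chromosome 15, 77792556 to 77844881; log2 ratio -3.87). The untreated peak had the lowest score of any wide untreated peak, 315.05, and the post-caerulein peak scored 62.45. The flanks of Myh9 were alike, with 19.7 kb covered after caerulein and 21.0 kb untreated. At Cystm1 and Pfdn1, the latter a subunit of the chaperone prefoldin, 66.7 kb was covered in untreated spheroids and 15.2 kb after caerulein (log2 ratio -2.06), by 1 peak of score 3100 in each list. Eva1c, a membrane protein with lectin domains, had 21.3 kb against 9.96 kb and 21.3 kb against 8.40 kb in its 2 domains. The 50 kb on each side of these had 48.6 kb against 21.5 kb and 68.5 kb against 28.7 kb. A flank of 1 Eva1c domain can hold part of the other. The flanks of Cystm1 and Pfdn1 had 31.4 kb untreated and 20.4 kb after caerulein.

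The domain from Rpl7 to Rdh10, a ribosomal protein and an enzyme of retinoic acid synthesis, had 23.0 kb in untreated spheroids and 9.61 kb after caerulein (log2 ratio -1.18). Mgat4a, an enzyme that branches N-glycans, had 37.5 kb against 20.4 kb (-0.85), the latter in 6 peaks. Obp2a and Bmyc had 16.6 kb against 8.19 kb, Igsf9 had 15.0 kb against 9.13 kb and Fam107b had 27.4 kb against 17.4 kb. The difference was smaller at Slc16a11, a monocarboxylate transporter family member (18.9 kb against 12 kb, log2 ratio -0.61), and at Col4a2, a chain of basement membrane collagen (16 kb against 10.2 kb, log2 ratio -0.60). Without a second library of either condition, a lost or gained domain and the loss of 1 stretch in 1 library cannot be told apart. Between the peaks that flank each of the 15 domains under 50% covered in 1 list, 0 peak numbers were missing. A missing number could mark only a peak removed from the list after numbering. A stretch that never became a numbered peak leaves no such mark, so its loss in 1 library was not tested.

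**Figure D3:**
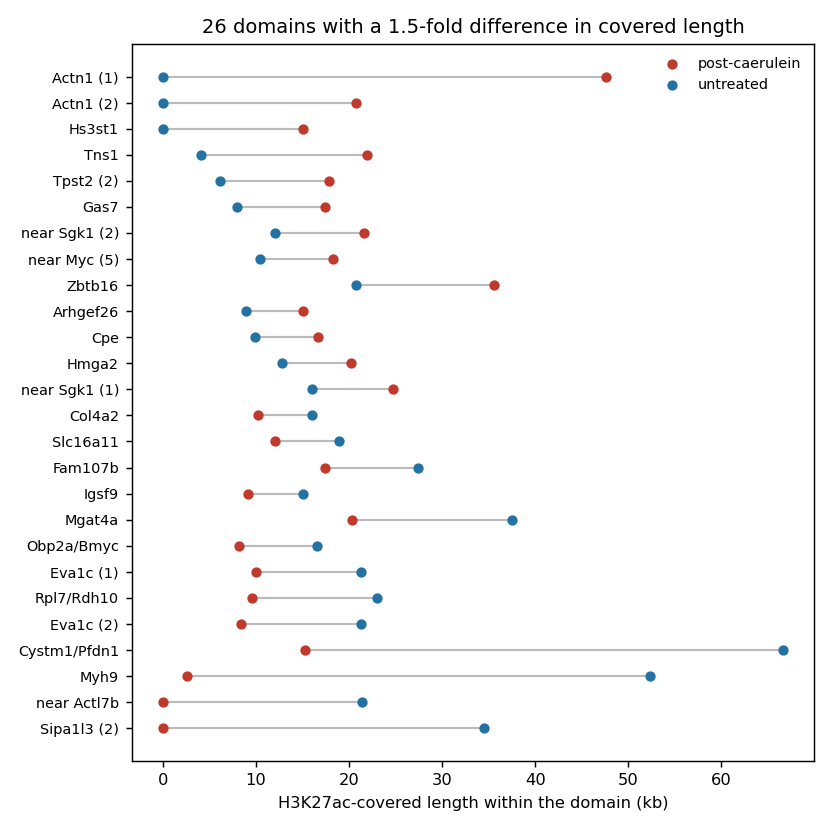
Length covered by H3K27ac peaks (kb, horizontal axis) within 26 of the 28 domains that differed by at least 1.5 times, after caerulein (red points) and in untreated spheroids (blue points), 1 library each, ordered by the log2 ratio. The upper 13 are longer after caerulein and the lower 13 in untreated spheroids; 5 have a point at 0, where no peak is listed.

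A start or an end of a protein-coding gene was inside 538 domains (59.4%, 56.2 to 62.7), 211 (23.3%) lay within 1 gene, and 156 (17.2%, 14.8 to 19.9) touched no protein-coding gene. The share with a start or end inside was 46.1% in regions with a widest peak of 10 to 15 kb, 39.1% at 5 to 10 kb and 33.2% at 2 to 5 kb. It thus rose with width over these classes. Regions under 2 kb were left out, and the shares do not allow for the length of a region. Beneath the domains lay 827 of 20661 autosomal protein-coding genes, in whole or in part (4%). An end of the gene was inside for 645 (3.12%), and an annotated start for 453 of the 16456 genes with a promoter entry (2.75%). On the chromosomes with such entries 393 of 886 domains (44.4%, 41.1 to 47.7) held a gene start. Starts were less dense than under narrower regions: 2.21 per 100 kb in the domains, 3.40 in regions with a widest peak of 10 to 15 kb, 4.86 at 5 to 10 kb and 9.42 at 2 to 5 kb. Long noncoding RNA genes lay beneath 327 domains, 94 of them among the 156 that touched no protein-coding gene.

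Where a domain held 1 gene start, it mostly reached further downstream of the start than upstream. In 344 such domains the median length was 4.8 kb upstream and 15.5 kb downstream of the start, and 275 (79.9%, 75.3 to 84.0) lay mostly downstream. Downstream length counts all of the domain past the start, including any part beyond the far end of the gene. At Foxa2 it was 43985 bp, beside a gene length of 4093 bp. In 375 regions of 10 to 15 kb the medians were 3.19 and 8.79 kb, and 74.9% (70.2 to 79.2) lay mostly downstream. The domain covered the whole gene in 75 of the 344, such as Ier5 and Btg2, 2 short genes of the growth and stress response, and a median of 50.7% of the gene over all. Genes with a start beneath a domain had a median length of 26.9 kb, against 17.3 kb for all genes with a promoter entry. Where only 1 start was held, the median gene length was 30.9 kb for domains and 23.5 kb for regions of 10 to 15 kb.

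The position of domains relative to genes, which was not used in choosing them, was compared between the classes. No protein-coding gene was touched by 64 of the 243 wide after caerulein alone (26.3%, 20.9 to 32.3), by 16 of the 153 wide in untreated spheroids alone (10.5%, 6.10 to 16.4) and by 76 of the 509 wide in both (14.9%, 11.9 to 18.3). A gene start or end was inside 110 (45.3%, 38.9 to 51.8), 98 (64.1%, 55.9 to 71.6) and 330 (64.8%, 60.5 to 69.0). The difference between the classes was not tested, because each condition has 1 library. Among regions of 10 to 15 kb with a peak of at least 10 kb in 1 list alone, the shares over no gene were 25.8% (21.6 to 30.4; n = 399) after caerulein and 19% (14.6 to 24.1; n = 279) in untreated spheroids, with intervals that overlap, and 24.2% (20.8 to 27.9; n = 578) where both lists had such a peak. A gene start or end was inside 43.1%, 44.8% and 48.8% of these, so the shares lay closer together than at 15 kb. At a limit of 20 kb the shares were 19.9% and 12%.

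**Figure D4:**
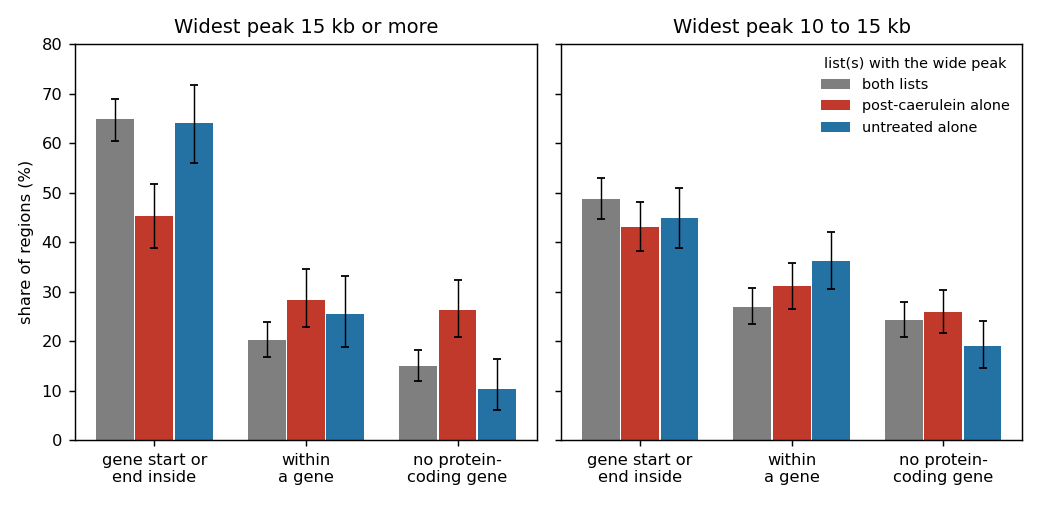
Share of regions (%, vertical axis) that hold a start or end of a protein-coding gene, lie within a gene or touch none, for the broad domains (left) and for regions whose widest peak is 10 to 15 kb (right). Colours give the list or lists with a wide peak, and error bars are exact 95% binomial intervals; the share over no gene is 26.3% after caerulein alone and 10.5% in untreated spheroids alone at 15 kb.

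Several long genes and gene deserts carried more than 1 domain. Of the genes beneath domains, 81 were under at least 2 and 16 under at least 3. Foxp1, a forkhead repressor, lay under 5 domains of 107 kb together, and Msi2, an RNA-binding protein of stem and progenitor cells, under 4 of 98.9 kb. Sorbs2 (124 kb) lay under 3. Another domain lay within 50 kb of 313 (34.6%), and 35 runs held at least 3. For 52 domains (5.75%) another lay within 1 kb. Such neighbours were counted as separate domains in the counts and intervals, though they may not be independent. A run of 5 between Irf2bp2 and Tomm20 had 99.8 kb covered after caerulein against 81.5 kb untreated, and a run of 4 near Myc had 75.8 kb and 59.0 kb. A run of 3 near Slc39a11, in the desert towards Sox9, a transcription factor of duct and progenitor cells, began 290 kb from that gene and had 88.1 kb covered after caerulein and 78.1 kb untreated. A run of 4 from Sik1, a salt-inducible kinase, to Hsf2bp had 145 kb and 140 kb.

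The cultures are labelled as pancreatic epithelial cells. Of the cell type marker lists, only the ductal list had a share beneath domains well above that of all genes. Of 22 ductal markers 12 lay beneath a domain (54.5%), against 4% of all autosomal protein-coding genes. No domain lay over the others: Sox9, Cftr, Spp1, Epcam, Muc1, Onecut1, Car2, Aqp1, Cldn7 and Pkhd1. Krt8 and Krt18, the paired keratins of simple epithelium, shared a domain of 51.8 kb, covered over 51.8 kb after caerulein and 51.6 kb untreated. Krt19, Krt7 and Krt23, further epithelial keratins, lay beneath 27.5, 21.1 and 31.7 kb. Cldn4, a tight-junction claudin, had 29.3 kb in both lists, and Prom1, a membrane protein of duct cells, had 24.9 kb after caerulein and 30.3 kb untreated. Slc4a4, the bicarbonate cotransporter of the duct, had 24.1 kb and 24.0 kb.

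Of 21 acinar markers 1 lay beneath a domain (4.76%), near the 4% of all autosomal protein-coding genes. It was Mecom, a transcription factor also found outside acinar cells (17.9 kb after caerulein, 15.0 kb untreated). None of the 65 autosomal markers of 4 other types, endocrine, mesenchymal, immune and endothelial, lay beneath a domain. Among housekeeping genes Ywhaz did, 1 of 18 (5.56%). None of 20 genes for readers and writers of acetylation did. With a share of 4% over all genes, counts this small do not show that these lists avoid domains.

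Transcription factors of the duct and its progenitors lay beneath domains in 10 of 24 cases (41.7%, against 4% of all autosomal protein-coding genes). Foxa2, a pioneer factor of endoderm, had 46.7 kb after caerulein against 41.3 kb untreated. Pdx1, required for formation of the pancreas, had 20.4 kb and 20.2 kb. Gata6, a factor of pancreatic identity, had 16 kb and 14.2 kb and passed 15 kb after caerulein alone. The epithelial factors Ehf (38.6 and 39.3 kb), Elf3 (23.0 and 23.9 kb) and Klf5 (18.2 and 18.0 kb) were near equal in the lists. Grhl2, a regulator of epithelial junctions, had 17.0 kb and 20.7 kb and passed 15 kb in untreated spheroids alone. Tead1, the DNA-binding partner of YAP, lay under 2 domains with 46.1 kb and 42.7 kb.

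The adhesion and actin list held the highest share, 19 of 30 (63.3%). It had been written with Actn1, Bcar3, Shb and Sorbs2 already known as wide, and without these 4 the count was 15 of 26 (57.7%). Integrin chains were represented by Itga3 (45.1 kb after caerulein, 44.3 kb untreated), Itgb6 (30 and 26.1 kb), Itga6 (23.4 and 22.8 kb) and Itga2 (16.7 and 16.6 kb). Cdh1, which encodes E-cadherin, had 46.9 kb and 47.2 kb. Actn4, the paralog of Actn1, had 57.0 kb and 57.4 kb, beside the 68.3 kb and 0 kb of Actn1. The focal adhesion genes Vcl (22.6 and 19.9 kb) and Pxn (25.3 and 23.4 kb) were covered in both lists.

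Signalling lists followed with smaller shares, to be read beside the 4% of all autosomal protein-coding genes. Of 31 genes of EGFR and MAPK signalling, 9 lay beneath domains. Among ligands of the receptor, Tgfa had 19.8 kb after caerulein against 15.8 kb untreated, Hbegf 15.6 and 13.8 kb, and Ereg 18.0 and 19.5 kb. The receptor gene Egfr had 33.4 kb and 31.2 kb. Its feedback inhibitor Errfi1 had 29.2 kb and 26.8 kb, while the MAPK phosphatases Dusp6 (23.8 and 28.5 kb) and Dusp5 (15.3 and 17.7 kb) passed 15 kb in untreated spheroids alone. The ETS factors Ets1 (22.2 and 20.2 kb) and Ets2 (18.0 and 17.3 kb) complete the 9.

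AP-1 and immediate early genes lay beneath domains in 6 of 20 cases, among them Junb (29.5 kb after caerulein, 26.4 kb untreated), Fosl2 (17.3 and 18.6 kb), Klf6 (19.5 and 18.6 kb) and Maff (21.0 and 21.2 kb). The NF-kB list gave 5 of 20. Its inhibitors Nfkbia (20.4 and 19.3 kb) and Tnfaip3 (15.5 and 15.1 kb) and the nuclear regulators Bcl3 (39.8 and 40.4 kb) and Nfkbiz (20.7 and 20.6 kb) were alike in the lists, and Tnfaip2 had 12.4 kb and 16.2 kb. The Wnt and Hippo list gave 7 of 26, with the ligands Wnt7b (55.7 and 55.5 kb) and Wnt4 (17.1 and 14.7 kb), beta-catenin, Ctnnb1 (36.2 and 37.4 kb), and its partner Tcf7l2 (15.6 and 18.2 kb).

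The Notch list gave 3 of 16: the receptor Notch2 under 2 domains (51.9 kb after caerulein and 43.0 kb untreated), Notch3 (16.1 and 16.3 kb) and the target Hes1 (29.9 and 29.8 kb). TGF-beta signalling gave 2 of 20, Smad3 and the inhibitory Smad7 (27.9 and 29.6 kb). Nuclear receptors and coactivators gave 2 of 20, Zmiz1 and the retinoic acid receptor Rara (17.6 and 16.4 kb). Both shares of 2 in 20 were 10%, against 4% of all autosomal protein-coding genes, and rest on few genes. In all, 73 distinct listed genes lay beneath domains, and in 69 of them the domains, summed over each gene, were at least 80% covered in both lists. The exceptions were Actn1, Myh9, Tgfa and Tnfaip2. Notch2 passed on the sum, while its second domain alone was covered over 72.0% in the untreated list.

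Longer genes meet a domain more readily, so the count was also taken over genes with an end inside. Against 3.12% of all genes, 11 of 22 ductal markers (50.0%) and 12 of 30 adhesion and actin genes (40%) met this narrower rule. So did 9 of 24 duct and progenitor factors (37.5%) and 6 of 20 AP-1 and immediate early genes (30%). The rule was met by 5 of 20 NF-kB genes (25%) and 6 of 26 Wnt and Hippo genes (23.1%). It was met by 6 of 31 EGFR and MAPK genes (19.4%) and 3 of 16 Notch genes (18.8%). TGF-beta signalling gave 2 of 20 (10%). Nuclear receptors and coactivators gave 1 of 20 (5%), near the share of all genes. No gene of the remaining lists met the rule. The lists were chosen with earlier results of these data known, and their shares are descriptions.

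**Figure D5:**
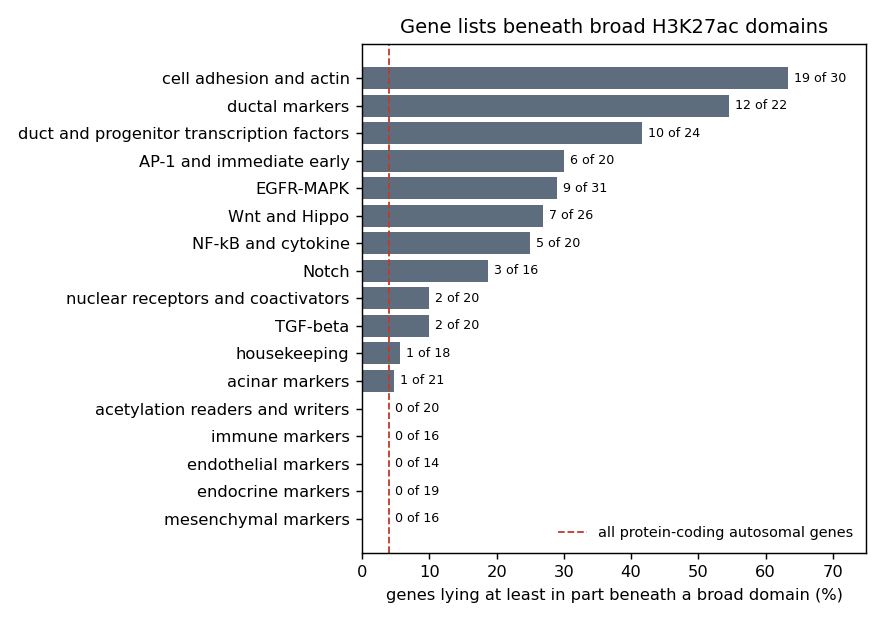
Share of each of 17 gene lists that lies at least in part beneath a broad domain (%, horizontal axis), with the counts beside the bars; the dashed line is the share of all autosomal protein-coding genes, 4%. The adhesion and ductal lists have the longest bars, and 5 lists have no gene beneath a domain.

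Promoters beneath the domains were rich in G+C, like other acetylated promoters. The 564 windows of the 453 genes had a median G+C content of 62.7% and 20 CpG dinucleotides, against 61.7% and 22 in 10603 windows under narrower peaks only and 49.7% and 4 in 8917 windows under no peak. The ETS letters CCGGAA were present in 16.8% of windows beneath domains, 30% under narrower peaks, 6.26% under no peak and 19.1% of all 20084 windows. AP-1 letters were present in 6.74%, 3.71%, 5.74% and 4.70% of these sets. SP/KLF letters were present in 67.6%, 65.9%, 23.3% and 47.0%, as in the Smad3, Actn1 and Myh9 windows shown above. TEAD letters were present in 12.9%, 11.6%, 15.5% and 13.4%, and the TATA letters in 6.56%, 6.55%, 20.4% and 12.7%. Windows of 1 gene overlap in part, so they are not independent.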

How the data were processed

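H3K27ac chromatin immunoprecipitation (antibody ab4729, per the labels' protocols) was sequenced from 1 untreated and 1 post-caerulein library; an input library was not analysed here. Upstream tools, per the submitters' processing notes, were Trimmomatic 0.38, Bowtie2 2.2.6, SAMtools and MACS 1.4, with GRCm38 or mm10 as the build; control library and caller options are not given in the sources used here. Every deposited list belongs to 1 library and gives the start and end position of each peak and a score that no header defines. The score deposited by the authors piles up at 3100 and was used only within 1 list. The untreated list skips 5 peak numbers.

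Autosomal peaks of 15 kb or more were pooled and merged at an overlap of 1 bp. Covered length counts the bases of a domain under peaks of any width, and its log2 ratio has a pseudocount of 1 kb. Merging and covered lengths matched bedtools 2.31.1 in all 905 domains, and 300 of 300 simulated sites were recovered. Genes, microRNAs and promoters came from RefSeq tables of GRCm38.p6; gene ends were known for all genes and starts for the 16456 with a promoter entry, none of them on chromosome 18. Of 345 listed genes, 341 matched an autosomal gene. Intervals are exact Clopper-Pearson 95% intervals (scipy 1.17.1).

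Domains named are the 15 widest, the 10 with the largest difference in each direction, those without a peak of 1 list, 5 on each side of the width limit and those over listed genes; other domains past 1.5-fold, runs, microRNAs and genes under several domains were named after their values were seen. The domains and lists were chosen with earlier results of these data known. Some domains and genes that fall under these rules are not reported here. Alternatives were other width limits, joined peaks, score filters, folds and pseudocounts.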

Additional observations from a re-analysis of the deposited data

How the results depend on the processing

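No paired analysis was possible because there is only 1 library per condition; leaving out a replicate was likewise not possible. At a width limit of 20 kb there were 455 domains, at 10 kb 2165, and with peaks under 1 kb apart joined 1430. The share wide in both lists was 51.9% at 20 kb and 61.5% at 10 kb, and the share wide after caerulein alone 29.9% and 23.3%. With peaks below their list's median score left out, 92.4% of the domain length was covered after caerulein and 91.6% in untreated spheroids, the domains past 1.5-fold rose to 40 after caerulein and 38 in untreated spheroids, and 125 domains had 1 untreated peak against several post-caerulein peaks. At a fold of 2 there were 7 in each direction, and at 20 kb 7 longer after caerulein and 9 in untreated spheroids. With peaks joined, 109 domains had 1 post-caerulein peak against several untreated and 64 the converse. At 20 kb, 465 genes lay beneath domains and 19.9% of those wide after caerulein alone touched no gene. Joining peaks, chosen after seeing the data, gave 26.6% over no gene after caerulein alone and 14.8% in untreated spheroids alone; the score filter gave 26.9% and 10.3%. Of 34 gene list counts rerun, 24 stayed within 1.5 times and 10 moved. The cause was not tested. Covered length was called stable within 2 percentage points. Depth is unknown, so how peak width depends on it could not be examined.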

Other observations

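The X chromosome, left out of the domains above, held 3 merged regions with a peak of at least 15 kb. One lay at Srpx2 (15.1 kb), with 15.1 kb covered after caerulein against 12.4 kb untreated. Another, of 17.2 kb, had 17.2 kb and 16.1 kb covered; like the region at Srpx2 it passed 15 kb after caerulein alone. The third, of 27.3 kb, passed 15 kb in both lists, with 27.3 kb and 25.4 kb covered. By autosome, the number of broad domains per 100 merged regions ran from 1.31 on chromosome 13 to 2.69 on chromosome 7.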
